A study of Mus musculus with 6 samples.

Results

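The genes described here encode WNT ligands, their receptors and their secreted inhibitors, in epididymal white adipose tissue (eWAT, the fat pad beside the epididymis) of fasted mice. Members were the protein-coding rows of the deposited gene table whose symbols name a WNT, an R-spondin (Rspo1 to Rspo4), a Frizzled, Lrp5 or Lrp6, an LGR receptor (Lgr4 to Lgr6), a secreted Frizzled-related protein (Sfrp and Frzb), a Dickkopf (Dkk1 to Dkk4) or Wif1. This rule found 48 of 45777 genes, and it used no measured value. The study sequenced mRNA of 6 libraries, 3 labelled WT and 3 labelled KO, all on a C57BL/6 background and all after 24 h of fasting. Libraries labelled WT came from Pak4 flox/flox mice, which carry loxP sites in Pak4, a kinase activated by CDC42-type GTPases. Libraries labelled KO came from Adipoq-Cre; Pak4 flox/flox mice, in which the adiponectin promoter drives Cre recombinase in adipocytes. Both groups thus carry the floxed alleles, and other cells of the pad do not express this Cre. The labels name adipocytes as the cell type, whereas the protocol takes the whole pad, and they give no age.

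WNT proteins are secreted, lipid-modified signals that bring a Frizzled receptor together with the co-receptor LRP5 or LRP6, which stabilises beta-catenin and lets it act with TCF/LEF factors on target genes. R-spondins bind LGR receptors and keep Frizzleds at the cell surface by removing the ubiquitin ligases ZNRF3 and RNF43. SFRP proteins and WIF1 bind WNTs outside the cell, and Dickkopf proteins act mainly on LRP5 and LRP6. In fat, WNT signalling through beta-catenin restrains the formation of adipocytes from progenitors, and SFRP5 is an inhibitor made by adipocytes themselves.

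Total counts ran from 62854465 to 72005658 per library. The targeted gene, Pak4, was covered by 339, 337 and 358 counts in WT 1, 2 and 3 and by 815, 744 and 675 in KO 1, 2 and 3, so all libraries labelled KO exceeded all labelled WT. Because this goes against the labels, each direction below is between libraries by their label, not between genotypes. KO 1 stood apart from its group: on the first principal component of log2 CPM (44.1% of the variance) it lay at -1.85, with the libraries labelled WT between -53.5 and -12.3 and KO 2 and KO 3 at 40.9 and 53.5. All 15 mature adipocyte markers were tested, and their summed level was 84220 to 91439 CPM (counts per 1000000) in every library, while markers of epididymal epithelium and sperm summed to at most 0.895 CPM, with 6 of 11 at 0 counts in all 6 libraries. CPM below are counts scaled by TMM (edgeR's factors for library composition), and since nothing ties each replicate to its own animal, the tests reflect spread among these libraries, which may be technical.

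The most abundant members were an inhibitor, a receptor and an R-spondin. On the per-length scale of the authors' TPM (length-corrected abundance, scaled to a fixed sum in each library), mean levels over the 6 libraries were 166 for Sfrp5, 108 for Fzd4 and 68.3 for Rspo1. Lrp6 (33.5 TPM) and Wnt2b (33.1 TPM) followed, then Lgr4 (24.4), Sfrp2 (23.2) and Lrp5 (21.7). In all, 25 of the 48 had a mean of at least 1 TPM and 11 of at least 10 TPM. Most steps in this order were smaller than the spread between libraries. Of the 24 pairs of neighbours among those 25 genes, the TPM ranges overlapped in 22, and they were apart only between Wnt9a (6.20 TPM) and Wnt5b (3.48 TPM) and between Wnt10b (2.56 TPM) and Fzd3 (1.29 TPM).

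**Figure D1:**
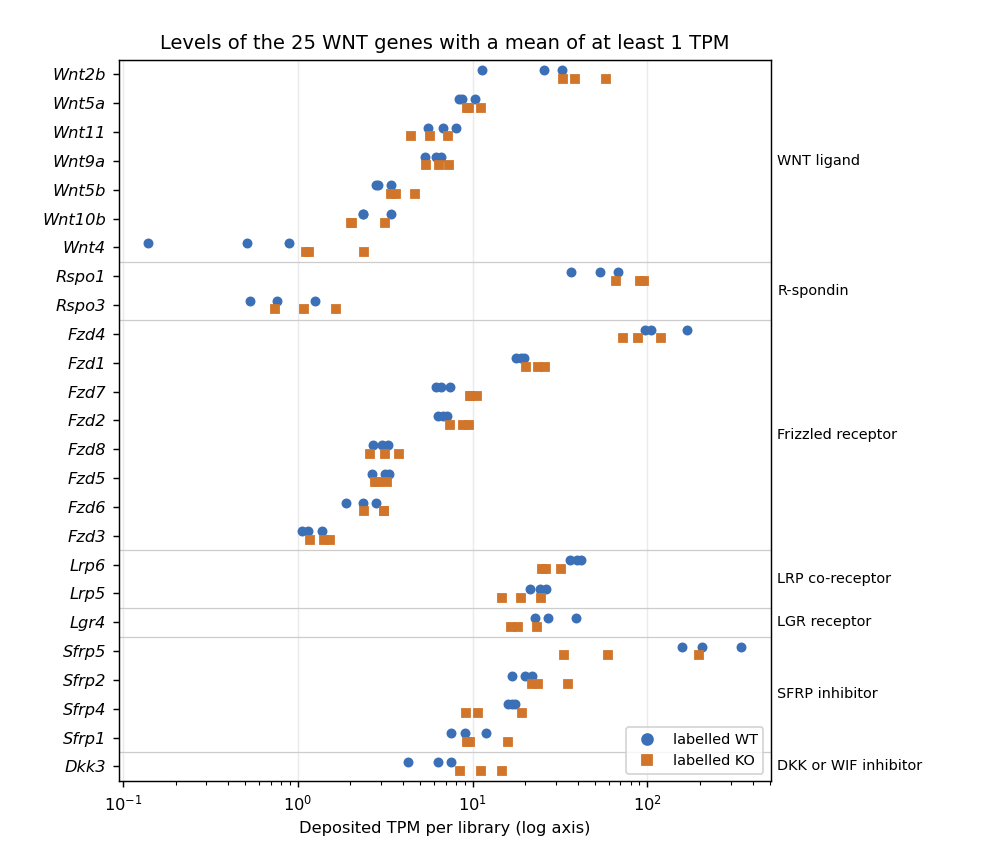
Deposited TPM of the 25 members with a mean of at least 1 TPM (x axis, log scale), in order of role and level. Each circle is a library labelled WT and each square a library labelled KO (3 of each); Sfrp5 and Wnt4 spread widest, while Wnt5a and Wnt9a stayed close together.

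No member passed the test between labels. Of the 34 members with enough counts to test, 0 had an adjusted p under 0.05 (edgeR, quasi-likelihood; Benjamini-Hochberg over 17820 genes), where 0.0168% of all genes passed. The log2 fold change (KO label over WT label, as in all that follows) was above 0 for 21 and below 0 for 13. Over all genes tested, 52.1% lay above 0. The median was 0.19 for the members, beside 0.02 over all genes tested. Unadjusted p was under 0.05 for 9 of the 34 (26.5%), 6 higher and 3 lower, against 19.4% of all genes (9.66% higher and 9.71% lower). Groups did not overlap for 7 members, of which 6 were higher and only Lrp6 lower under the KO label, where the shares over all genes were 13.7% and 12.5%. That is 20.6% of the members tested and 26.2% of all genes, so members did not exceed the background in this respect. Wnt6, Frzb and Wif1 passed the filter on low counts mainly or wholly through 1 group. Fewer than 2 libraries of the other group were at its cut-off of 0.151 CPM, which is taken on total counts without TMM scaling. Their differences thus follow in part from the filter. Frzb, which is among the 6 higher members with groups apart, reached the cut-off in 0 libraries labelled WT and in 3 labelled KO.

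Other settings brought at most 3 members past the threshold. DESeq2 called Fzd7 (adjusted p 0.00138), Lrp6 (0.00754) and Dkk3 (0.0196), which is 10.3% of the members it gave an adjusted p, against 7.16% of all genes (2.89% higher and 4.27% lower). Without KO 1, edgeR called Lrp6 (adjusted p 0.0294), Sfrp5 (0.0430) and Fzd7 (0.0461), 8.82% of the members, against 5.57% of all genes (2.08% higher and 3.49% lower). The median log2 fold change of the members ran from 0.02 without KO 3 to 0.31 with scaling by library size alone, a scaling that moved the median of all genes by 0.12.

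**Figure D2:**
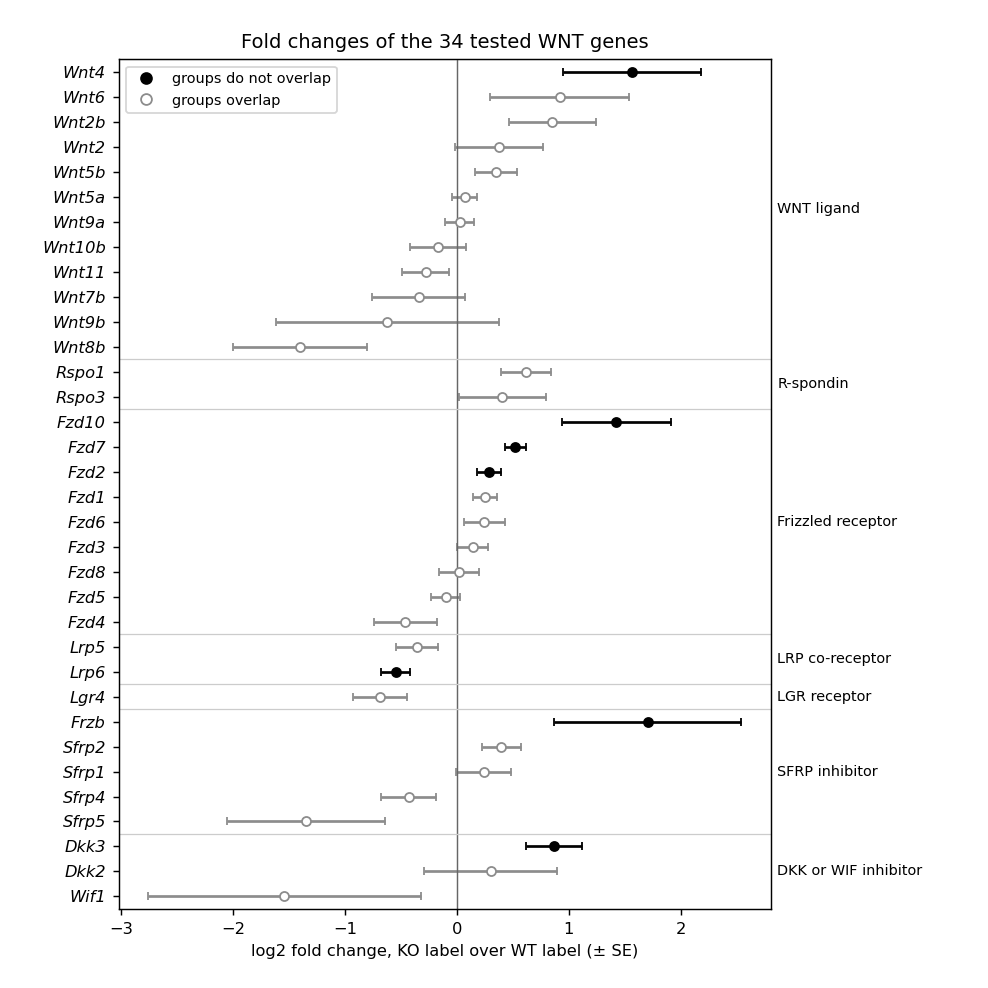
Log2 fold change (x axis, KO label over WT label) of the 34 tested members, grouped by role, from edgeR's fit. Bars are the standard error of the fit, and filled points mark genes whose 3 libraries of each label do not overlap in CPM. Fzd7 (0.52), Lrp6 (-0.55) and Fzd2 (0.29) combine separate groups with short bars.

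Among the ligands, Wnt2b was the most abundant, with 28.0% to 64.4% of the summed TPM of the 19 WNT genes in a library. Wnt2b, which signals through beta-catenin, stood at 63.2, 22.9 and 48.0 CPM in WT 1, 2 and 3 and at 62.2, 69.7 and 110 CPM in KO 1, 2 and 3. The groups overlapped because WT 1 lay just above KO 1, and WT 2 was the lowest and KO 3 the highest library. Its log2 fold change was 0.85 ± 0.39 (SE), with an adjusted p of 0.281 in edgeR, and it was 0.54 without WT 2 and 0.56 without KO 3. Wnt4, a ligand of kidney and gonad development, had 1.86, 0.313 and 1.03 CPM in WT 1, 2 and 3 and 2.38, 2.17 and 4.90 CPM in KO 1, 2 and 3. All 3 libraries labelled KO lay above all 3 labelled WT, at a low level with a wide spread, and the log2 fold change of 1.57 ± 0.61 had an adjusted p of 0.234 in edgeR.

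Several ligands of middling level had small differences. Wnt5a, the main ligand of the branch independent of beta-catenin, averaged 29.5 ± 2.18 CPM (SD, n = 3) under the WT label and 31.0 ± 3.74 CPM under the KO label, a log2 fold change of 0.07 ± 0.11. Its relative Wnt5b stood at 0.35 ± 0.19 and Wnt11 at -0.28 ± 0.21. Wnt9a stood at 0.02 ± 0.13, and Wnt10b, a ligand known to hold back adipogenesis, at -0.17 ± 0.25 with 4.03 ± 1.11 and 3.58 ± 0.82 CPM. For Wnt5a, Wnt9a and Wnt10b the difference was smaller than its standard error.

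Low ligands had wide errors. Wnt8b had 0.571, 1.61 and 2.32 CPM in WT 1, 2 and 3 and 0.966, 0.445 and 0.295 CPM in KO 1, 2 and 3. The groups overlapped through WT 1, which lay below KO 1, and the log2 fold change was -1.40 ± 0.60 with an adjusted p of 0.255 in edgeR. Wnt2 stood at 0.38 ± 0.39, Wnt6 at 0.92 ± 0.62, Wnt7b at -0.34 ± 0.42 and Wnt9b at -0.62 ± 1.00, each with overlapping groups. Wnt2 turned to -0.17 without KO 3, its highest library at 2.07 CPM.

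Several WNT genes lie side by side in the genome. In these pairs, other than Wnt9b and Wnt3, a gene with counts in every library sat next to a nearly silent one. By RefSeq extents in GRCm38.p6, the assembly of mm10, Wnt3a and Wnt9a are 16097 bases apart on chromosome 11, Wnt10b and Wnt1 are 11650 bases apart on chromosome 15, and Wnt6 and Wnt10a are 6696 bases apart on chromosome 1. Wnt3a had 0 counts in all 6 libraries while Wnt9a had 642 to 856. Wnt1 had 11 and 6 counts in WT 1 and KO 1 and 0 elsewhere, while Wnt10b had 198 to 356. Wnt10a had 0 counts in all libraries and Wnt6 had 7 to 47. In the fourth pair, Wnt9b and Wnt3, whose extents overlap by 1098 bases on chromosome 11, both were low, at 0 to 19 and 0 to 3 counts.

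R-spondins were carried by Rspo1. This secreted amplifier of WNT signalling had 67.5, 37.7 and 51.1 CPM in WT 1, 2 and 3 and 63.8, 88.3 and 88.3 CPM in KO 1, 2 and 3. KO 2 and KO 3 lay above every library labelled WT, while KO 1 lay below WT 1, so the groups overlapped. Rspo1 had a log2 fold change of 0.62 ± 0.22, with an adjusted p of 0.209 in edgeR. Rspo3, the R-spondin of endothelium and other stromal cells, was far lower on the TPM scale (mean 1.00) and stood at 0.41 ± 0.39. Rspo2 had 0 to 9 counts per library and Rspo4 had 0 in all.

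**Figure D3:**
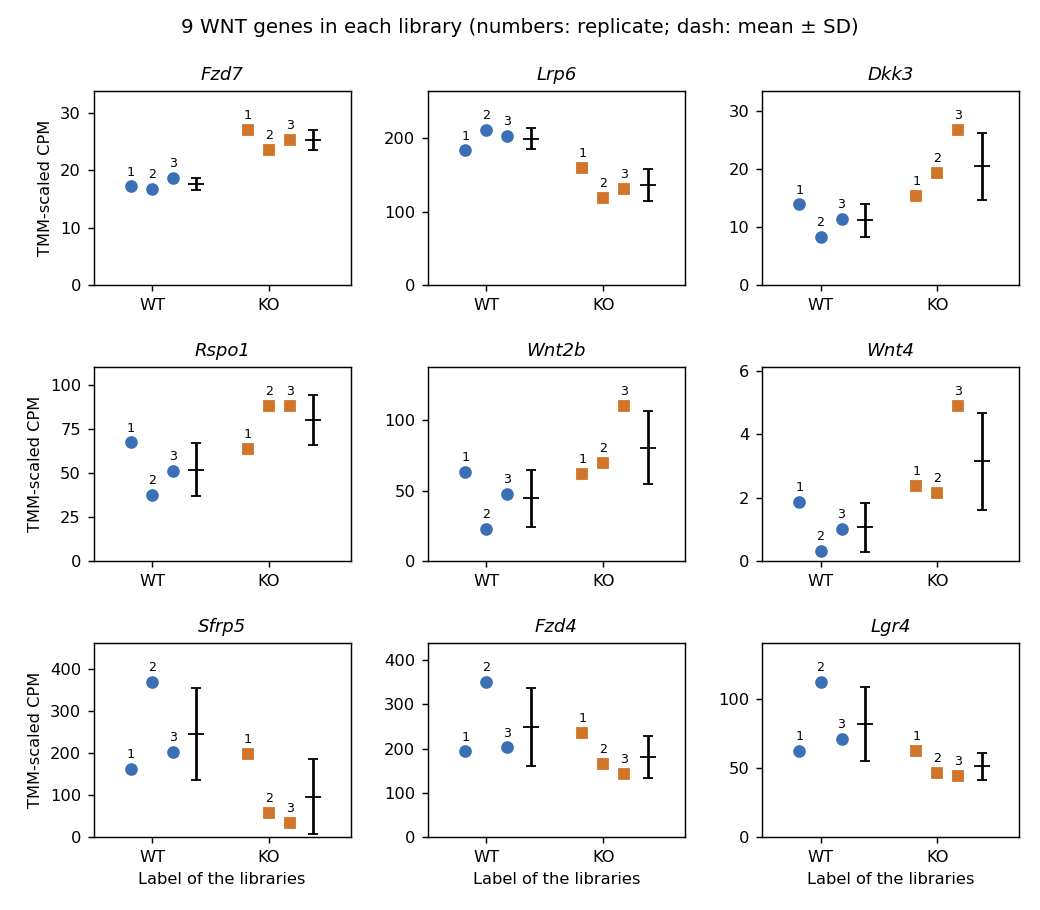
TMM-scaled CPM (y axis, from 0) of 9 members in each library; circles are libraries labelled WT, squares those labelled KO, numbers are replicates, and dashes with bars are mean ± SD of 3 libraries. Fzd7, Lrp6, Dkk3 and Wnt4 separate by label, whereas in the other 5 genes KO 1 lies among the libraries labelled WT.

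The Frizzled receptors went both ways around their most abundant member, Fzd4. Fzd4, a receptor known from blood vessel growth, took 56.8% to 80.7% of the summed TPM of the 10 Frizzled genes. It had 194, 351 and 203 CPM in WT 1, 2 and 3 and 235, 166 and 143 CPM in KO 1, 2 and 3. WT 2 stood far above the rest, and KO 1 lay above WT 1 and WT 3. Fzd4 thus had a log2 fold change of -0.46 ± 0.28 (adjusted p 0.392 in edgeR), or -0.13 without WT 2 and -0.69 without KO 1.

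Fzd7 (mm10 chromosome 1, 59482147 to 59486955), by contrast, was higher in each library labelled KO, and it had the smallest p of the members. Its values were 17.2, 16.8 and 18.7 CPM in WT 1, 2 and 3 and 27.1, 23.5 and 25.2 CPM in KO 1, 2 and 3. The groups were apart, with little spread inside either: 17.6 ± 1.03 and 25.3 ± 1.77 CPM (SD, n = 3). Its log2 fold change was 0.52 ± 0.10, with an adjusted p of 0.119 in edgeR and a range of 0.00138 to 0.403 over all alternatives. Its value stayed between 0.47 and 0.64 in them.

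The 2 receptors closest to Fzd7 in sequence, Fzd1 and Fzd2, lay above 0 as well. Fzd1 had 47.2, 43.9 and 43.7 CPM in WT 1, 2 and 3 and 46.9, 52.7 and 60.8 CPM in KO 1, 2 and 3. KO 1 lay just under WT 1, and the log2 fold change was 0.25 ± 0.11 (adjusted p 0.261 in edgeR), or 0.15 without KO 3. Fzd2 had 14.1, 13.1 and 12.96 CPM in WT 1, 2 and 3 and 14.4, 17.4 and 17.1 CPM in KO 1, 2 and 3. The groups did not overlap, by a narrow margin between WT 1 and KO 1, and the log2 fold change was 0.29 ± 0.11 (adjusted p 0.218 in edgeR).

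Other Frizzleds differed by less, except Fzd10 at a very low level. Fzd10 had 0.261, 0.0746 and 0.163 CPM in WT 1, 2 and 3 and 0.357, 0.445 and 0.537 CPM in KO 1, 2 and 3, that is 5 to 16 counts against 24 to 40. The groups were apart, and the log2 fold change was 1.42 ± 0.49 (adjusted p 0.196 in edgeR). Fzd6 stood at 0.24 ± 0.18, Fzd3, a receptor of planar cell polarity, at 0.14 ± 0.14, Fzd8 at 0.02 ± 0.18 and Fzd5 at -0.10 ± 0.13. Thus 7 of 9 tested Frizzled genes lay above 0, beside 52.1% of all genes, with a median of 0.24. Scaling by library size alone also turned Fzd5 positive. Fzd9 had 0 to 6 counts per library.

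Stretches just upstream of 4 members are shown because they hold, or lack, the letters bound by TCF/LEF factors, the end point of the beta-catenin branch. They are the 250 bases before the start in RefSeq (GRCm38.p6), written 5′ to 3′ on the gene's strand, for 2 receptors that lay above 0 (Fzd7, chr1:59481897-59482146, plus strand, and Fzd1, chr5:4758217-4758466, minus strand), the most abundant inhibitor (Sfrp5, chr19:42202253-42202502, minus strand) and the most abundant ligand (Wnt2b, chr3:104961710-104961959, minus strand). Capitals mark CTTTGA or CTTTGT on either strand.
Fzd7: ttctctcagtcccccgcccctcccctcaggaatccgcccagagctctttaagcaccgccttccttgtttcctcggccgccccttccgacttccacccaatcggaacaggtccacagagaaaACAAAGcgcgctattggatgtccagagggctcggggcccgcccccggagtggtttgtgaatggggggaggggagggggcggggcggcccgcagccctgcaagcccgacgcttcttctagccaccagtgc
Fzd1: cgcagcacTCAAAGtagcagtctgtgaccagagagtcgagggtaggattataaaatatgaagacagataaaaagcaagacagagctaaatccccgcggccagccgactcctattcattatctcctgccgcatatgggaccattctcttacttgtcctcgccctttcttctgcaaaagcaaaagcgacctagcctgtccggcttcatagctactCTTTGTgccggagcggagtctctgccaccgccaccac
Sfrp5: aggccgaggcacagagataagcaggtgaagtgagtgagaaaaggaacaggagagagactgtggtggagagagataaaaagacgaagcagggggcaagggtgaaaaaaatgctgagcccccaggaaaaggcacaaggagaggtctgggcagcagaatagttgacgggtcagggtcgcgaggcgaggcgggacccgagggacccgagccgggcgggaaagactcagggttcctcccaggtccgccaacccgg
Wnt2b: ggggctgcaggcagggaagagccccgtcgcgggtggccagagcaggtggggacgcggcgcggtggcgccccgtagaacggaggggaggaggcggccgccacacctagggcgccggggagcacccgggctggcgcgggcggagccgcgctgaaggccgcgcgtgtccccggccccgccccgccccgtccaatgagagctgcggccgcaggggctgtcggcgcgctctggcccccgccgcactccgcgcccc
Fzd7 held CTTTGT on the opposite strand, 124 to 129 bases before the start. Fzd1 held CTTTGT on its own strand at 32 to 37 bases and CTTTGA on the opposite strand at 237 to 242 bases before the start. These letters were not in the windows of Sfrp5 and Wnt2b. Either motif was in 8 of 34 windows of 31 members (23.5%), beside 27.6% of all 32851 windows of that length, so members did not hold it more often. Of the members with either motif, Dkk2, Frzb, Fzd1, Fzd7 and Wnt5b lay above 0 and Wnt11 and Wnt8b below, while Dkk1 had 0 counts. Wnt2b, without it, lay above 0 as well. Member windows were rich in G and C, with a median of 66.8% against 52.4% over all windows, and Wnt2b reached 80.8%.

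Both LRP co-receptors and Lgr4 lay below 0. Lrp6 (chromosome 6, 134446476 to 134566913), the co-receptor that relays the signal to beta-catenin, had 184, 212 and 204 CPM in WT 1, 2 and 3 and 160, 119 and 131 CPM in KO 1, 2 and 3. Every library labelled KO lay below every library labelled WT. The means were 199.6 ± 14.4 and 137 ± 21.3 CPM (SD, n = 3), a log2 fold change of -0.55 ± 0.13 with an adjusted p of 0.145 in edgeR, the second smallest p of the members. Over the alternatives its value ran from -0.68 to -0.43 and its adjusted p from 0.00754 to 0.421, DESeq2 included.

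Lrp5, which can replace Lrp6 in part, had 59.6, 70.8 and 71.2 CPM in WT 1, 2 and 3 and 67.8, 49.4 and 40.4 CPM in KO 1, 2 and 3. KO 1 lay among the libraries labelled WT, and the log2 fold change was -0.36 ± 0.18 (adjusted p 0.320 in edgeR), or -0.58 without KO 1 and -0.20 without KO 3. Lgr4, the receptor for R-spondins, had 62.8, 113 and 71.3 CPM in WT 1, 2 and 3 and 62.8, 46.4 and 44.5 CPM in KO 1, 2 and 3. WT 2 was the highest, and WT 1 and KO 1 were nearly equal. The log2 fold change of Lgr4 was -0.68 ± 0.24 (adjusted p 0.206 in edgeR), or -0.38 without WT 2. Lgr5, known as a stem cell marker of the gut, had 0 to 24 counts per library, and Lgr6 had 0 in all. None of these 3 log2 fold changes, of Lrp5, Lrp6 and Lgr4, changed sign in any alternative.

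Among the secreted inhibitors, Sfrp5 was the most abundant by mean TPM, and it varied widely between libraries of 1 label. It had 163, 370 and 204 CPM in WT 1, 2 and 3 and 199, 57.4 and 33.9 CPM in KO 1, 2 and 3. KO 1 stood with the libraries labelled WT, and the highest library had 10.9 times the CPM of the lowest. Sfrp5 had a log2 fold change of -1.35 ± 0.71, with an adjusted p of 0.340 in edgeR, and of -2.43 ± 0.44 (adjusted p 0.0430 in edgeR) without KO 1. Sfrp5 took 76.4%, 89.3% and 81.0% of the summed TPM of the 5 SFRP genes in WT 1, 2 and 3 and 82.5%, 48.1% and 40.6% in KO 1, 2 and 3. The other SFRP genes together had 41.0 to 48.5 TPM in the libraries labelled WT and 41.9 to 64.3 TPM in those labelled KO, so Sfrp5 set the SFRP sums, which were 205 TPM or more in the libraries labelled WT, 239 TPM in KO 1 and 124 and 82.2 TPM in KO 2 and KO 3.

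The remaining SFRP genes, products mainly of stromal cells, did not share that pattern. Sfrp2 had 24.0, 19.2 and 21.0 CPM in WT 1, 2 and 3 and 23.3, 35.9 and 25.3 CPM in KO 1, 2 and 3. The groups overlapped through WT 1 and KO 1, and the log2 fold change was 0.40 ± 0.17 (adjusted p 0.263 in edgeR), or 0.18 without KO 2. Sfrp1 stood at 0.24 ± 0.25 and turned to -0.08 without KO 3, its highest library. Sfrp4 stood at -0.43 ± 0.25, with 16.1 ± 1.21 and 11.9 ± 4.58 CPM, and at -0.79 without KO 2 and -0.24 without KO 3. Frzb, also called Sfrp3, had 8, 0 and 6 counts in WT 1, 2 and 3 and 14, 12 and 27 counts in KO 1, 2 and 3. Its groups were apart at this low level, and the log2 fold change was 1.71 ± 0.83 (adjusted p 0.295 in edgeR), or 1.11 without WT 2, where it had 0 counts.

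Dkk3, a divergent Dickkopf, was the one abundant gene of its family. It had 13.9, 8.30 and 11.4 CPM in WT 1, 2 and 3 and 15.3, 19.3 and 26.8 CPM in KO 1, 2 and 3. The groups did not overlap, and KO 1 was the closest to the libraries labelled WT. For Dkk3 the log2 fold change was 0.87 ± 0.25, with an adjusted p of 0.169 in edgeR. Dkk2 stood at 0.30 ± 0.59, or at -0.72 without KO 3, which held 80 of its counts where the other 5 libraries held 17 to 32. Wif1 had 10, 19 and 4 counts in WT 1, 2 and 3, 12 in KO 1 and 0 in KO 2 and KO 3. It stood at -1.54 ± 1.22, and between -0.96 and -0.94 without WT 2, KO 2 or KO 3. Leaving out KO 1 leaves the KO label with 0 counts, so the fitted value of -6.53 (adjusted p 0.0734 in edgeR) depends on the prior count and is no measure of size. Dkk1 and Dkk4, the classical antagonists of LRP6, had 0 counts in all 6 libraries.

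In all, 14 members were not tested. Dkk1, Dkk4, Lgr6, Rspo4, Wnt3a, Wnt7a, Wnt8a and Wnt10a had 0 counts in all 6 libraries. With counting error only, this allows up to 3 counts per library, or 0.0417 to 0.0477 CPM of the total counts, without TMM scaling. Lgr5, Fzd9, Wnt1, Wnt3, Wnt16 and Rspo2 had some reads but fell under the filter, Wnt16 with 5 counts in WT 1, 2 in KO 1 and 0 elsewhere. Among tested members, 7 share exon bases with a gene on the opposite strand in GENCODE M21 (Fzd5, Rspo3, Wnt5a, Fzd6, Wnt7b, Sfrp2 and Wnt11), for 3.15% to 17.8% of their exon bases. No source used here states whether counting used strand, so reads of those genes may be among their counts. The share of reads concerned was not measured, and the share of exon bases does not give it.

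Several members varied across libraries as markers of cell types did. Of the 13 tested mesothelial markers, 12 were above 0 (median 0.54 on the log2 scale), beside 52.1% of all genes. Groups were apart for 6 of them, all towards the KO label, beside 13.7% of all genes. Their summed level was 1122, 697 and 908 CPM in WT 1, 2 and 3 and 1111, 1261 and 1360 CPM in KO 1, 2 and 3. From lowest to highest this is the order WT 2, WT 3, KO 1, WT 1, KO 2, KO 3, which is also the order of Wnt2b and, reversed, that of Sfrp5. Rspo1, Wnt4 and Dkk3 were likewise lowest in WT 2 and higher in KO 2 and KO 3 than in any library labelled WT. The first principal component of all tested genes (44.1% of the variance) ran in nearly the order above, with WT 1 (-12.3) before KO 1 (-1.85). That order is thus not particular to mesothelial markers. No listed mesothelial marker was at 0 in all libraries, and Upk3b, Msln and Lrrn4 had the highest mean CPM of the list, a scale not corrected for length. The part of this cell type in the differences of Wnt2b, Rspo1, Wnt4 and Dkk3 was not tested. In whole tissue, fewer cells of a type and less RNA per cell cannot be told apart.

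**Figure D4:**
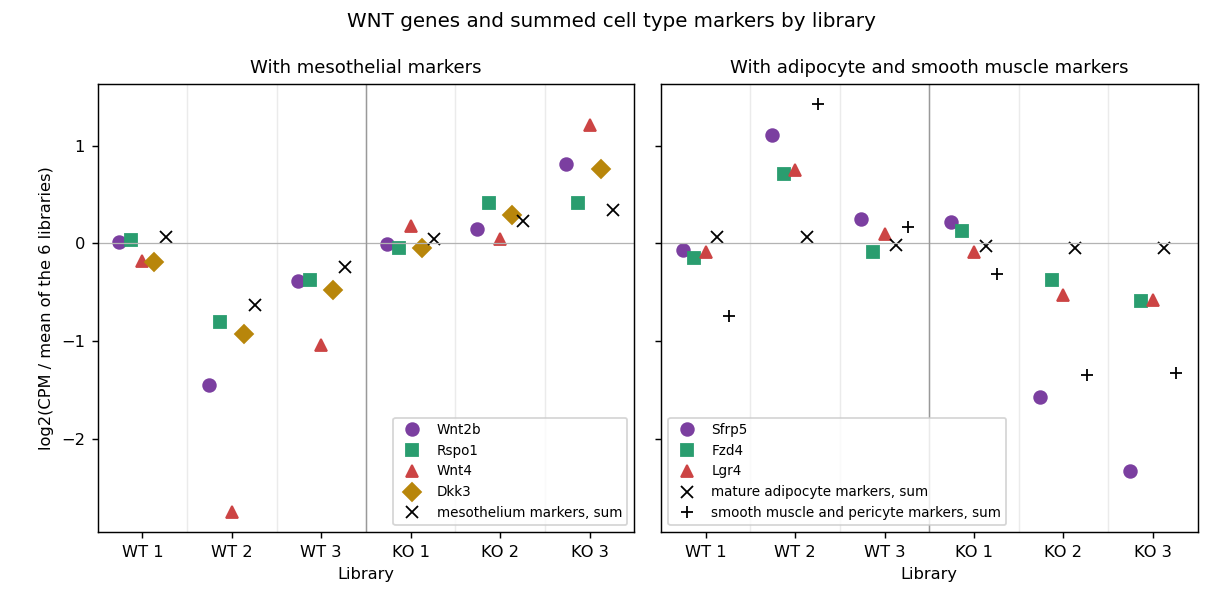
Log2 of CPM over the mean of the 6 libraries (y axis) for members and for summed cell type markers in each library (x axis). In the left panel Wnt2b, Rspo1, Wnt4, Dkk3 and the mesothelial sum (crosses) are lowest in WT 2; in the right panel Sfrp5, Fzd4, Lgr4 and the smooth muscle sum (plus signs) are highest in WT 2, while the sum of 15 adipocyte markers (crosses), led by Car3, Fabp4 and Cfd, stays near 0.

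Members that were high in WT 2 were set beside other lists. Smooth muscle and pericyte markers summed to 398, 1788 and 745 CPM in WT 1, 2 and 3. In KO 1, 2 and 3 they summed to 535, 262 and 265 CPM. Of these 10 markers, 8 lay below 0, and 4 had groups apart, all towards lower values, beside 12.5% of all genes. WT 2 was the highest library, as for Sfrp5, Fzd4 and Lgr4. Endothelial markers summed to 307, 391 and 356 CPM in WT 1, 2 and 3, so WT 2 was the highest library here too. In KO 1, 2 and 3 they summed to 281, 260 and 275 CPM. Of these 12 markers, 10 lay below 0, and 6 had groups apart, all towards lower values (12.5% of all genes). Mature adipocyte markers summed to 86359 to 91439 CPM under the WT label, highest in WT 2, and to 84220 to 85684 CPM under the KO label. Of these 15 markers, 11 lay below 0 (median -0.18). Groups were apart for 2 higher and 2 lower (13.7% and 12.5% of all genes). Car3, Fabp4 and Cfd make up most of these sums. Single genes of that list spanned more than the sum. Lep, which encodes leptin and is named after its values were seen, had 860, 2225 and 1064 CPM in WT 1, 2 and 3 and 1036, 410 and 441 CPM in KO 1, 2 and 3. As with Sfrp5, WT 2 was the highest library, KO 1 lay among those labelled WT, and KO 2 and KO 3 were the lowest. Its log2 fold change was -1.14 ± 0.49, while that of Cfd, which encodes adipsin, was 1.02 ± 0.32 with groups apart. Progenitor and fibroblast markers, where 9 of 15 lay above 0, summed to 4786 to 5113 CPM and 4529 to 6257 CPM. All 12 macrophage markers lay above 0, with sums of 1838 to 2264 CPM and 1973 to 2711 CPM. Groups were apart towards higher values for 3 progenitor and 5 macrophage markers, beside 13.7% of all genes, and towards lower values for 0. Of 8 skeletal muscle markers, 4 were tested and 3 of these lay above 0, with sums of 80.2 to 583 CPM and 9.74 to 152 CPM that were nearly all Acta1, highest in WT 2. None of these lists had a marker at 0 in all libraries, and the part of these cell types in the members' differences was not tested.

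Other genes of the pathway gave 0 calls over all genes in edgeR, against 0.0168% of all genes. Of 27 intracellular transduction genes, 13 lay above 0 and 14 below, with a median of -0.03, and 3 had groups apart towards higher and 4 towards lower values, beside 13.7% and 12.5% of all genes. Ctnnb1, which encodes beta-catenin, was among the 4, at -0.08 ± 0.09, and is named here after its value was seen. Ctnnbip1, which keeps beta-catenin from TCF factors, had 30.2 ± 2.61 and 19.3 ± 4.35 CPM (log2 fold change -0.64 ± 0.16). Tle1, a co-repressor of TCF factors, stood at -0.38 ± 0.10, Csnk1d, a casein kinase, at -0.29 ± 0.11, and Pygo1, a beta-catenin co-activator, at 0.45 ± 0.14.

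Genes of ligand modification and surface control were also split. Of 17 tested among 23, 8 lay above 0 and 9 below (median -0.04), with groups apart for 4 higher and 3 lower (13.7% and 12.5% of all genes). Gpc4, a glypican that binds WNTs, stood at -0.42 ± 0.09, and Trabd2b, a protease that inactivates WNTs, at -0.59 ± 0.15. Znrf3, the ligase that removes Frizzleds, stood at 0.36 ± 0.12, and Lrp4, which binds sclerostin and agrin, at 0.82 ± 0.27. Sost and Sostdc1 had 0 counts in all libraries. Among 16 non-Frizzled receptors and polarity genes (median 0.06), 10 lay above 0 and 6 below. Groups were apart for 2 higher and 3 lower, beside 13.7% and 12.5% of all genes. Prickle1 (0.58 ± 0.13) and Ptk7 (0.54 ± 0.16), both of planar polarity, lay above 0. Adgra2, a co-receptor of brain endothelium (-0.45 ± 0.12), and Daam1, which links Dishevelled to actin (-0.36 ± 0.13), lay below.

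Widely used target genes of beta-catenin had a median of 0.17, with 10 of 17 tested above 0 and 7 below. Those below include Ccn5 (-2.31 ± 1.06), Apcdd1 (-0.36 ± 0.16) and Ccnd1 (-0.27 ± 0.12), each with overlapping groups and named after its values were seen. The list summed to 390, 688 and 518 CPM in WT 1, 2 and 3 and to 424, 398 and 324 CPM in KO 1, 2 and 3. Apcdd1 was the largest part of this sum in every library. Groups were apart for 4, all towards the KO label: Znrf3, which is in the preceding list too, Twist1 (0.43 ± 0.11), a mesenchymal transcription factor, Tnfrsf19 (0.73 ± 0.25), a TNF receptor family member, and Nkd2 (0.66 ± 0.27), a feedback antagonist. That is 4 of 17 towards higher and 0 towards lower values, where the shares over all genes were 13.7% and 12.5%. With both directions pooled it is 23.5% of the tested target genes and 26.2% of all genes, so the pooled count did not exceed the background. Towards higher values alone, the 23.5% stands beside 13.7%, a difference that was not tested. Axin2, the target most often used as a readout and named after its values were seen, had 12.2, 23.2 and 14.1 CPM in WT 1, 2 and 3 and 26.1, 20.7 and 20.7 CPM in KO 1, 2 and 3. WT 2 lay above KO 2 and KO 3, so the groups overlapped, and the log2 fold change was 0.44 ± 0.24 (adjusted p 0.337 in edgeR).

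**Figure D5:**
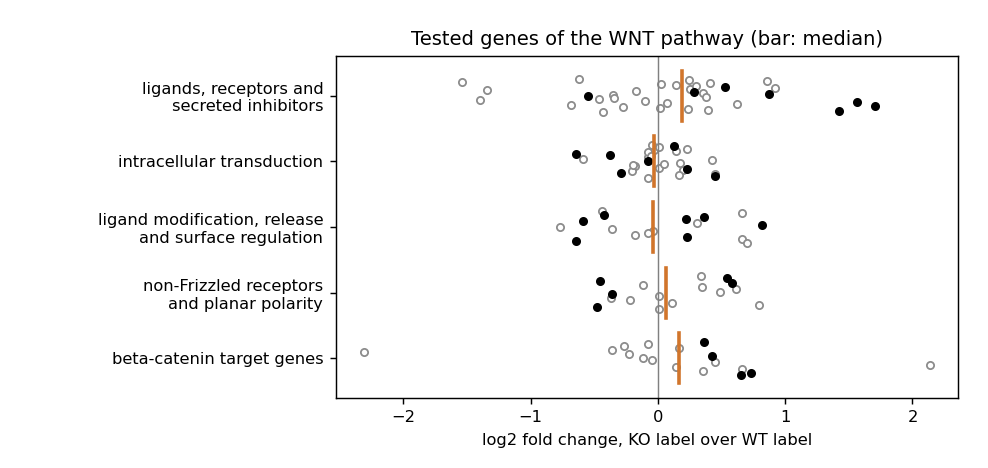
Log2 fold change (x axis, KO label over WT label) of the tested members and of 4 lists of other WNT pathway genes. Each point is a gene, filled where the 3 libraries of each label do not overlap, and the bar is the median of the list, between -0.04 and 0.19 in all 5 rows.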

How the data were processed

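Sequencing of whole-tissue mRNA (stranded kit, per the labels' protocols) gave 1 table. The deposited read counts are unnormalised whole numbers per gene and entered every test. The authors' deposited TPM, per length, gave levels between genes, and the deposited FPKM served as an alternative to them. The submitters' processing notes name HISAT2 2.1.0, Bowtie2 2.3.4.1, StringTie 2.1.3b and mm10, without roles. No source used here says how reads with several matches were counted.

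Groups came from sample titles. Genes passed filterByExpr (minimum count 10, minimum total 15), counts were scaled by TMM, and edgeR 4.0.16 (R 4.3.3) fitted a robust quasi-likelihood model on the label, two-sided, with Benjamini-Hochberg adjustment over 17820 genes and a threshold of 0.05. Standard errors are the log2 fold change divided by the square root of F. Scripts were tested on simulated data. Alternatives were DESeq2 1.42.0, limma 3.58.1 (voom), RLE or library-size scaling, no filter, a replicate block and leaving out each library.

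The members and lists were chosen with earlier results of these data known. Values in every library are given for the 8 members highest in TPM and the 12 with the smallest p. From each pathway list the 4 genes with the smallest p are named, and from a marker list at most 3. All 48 gene identifiers matched RefSeq (GRCm38.p6), which also gave the sequences. No library pair agreed within sampling noise (chi-square at least 46.9 per degree of freedom).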

Additional observations from a re-analysis of the deposited data

How the results depend on the processing

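The count of members past the threshold was 0 in edgeR and stayed 0 in 10 of 12 alternatives; it was 3 with DESeq2 and 0 to 3 with 1 library left out, the 3 coming without KO 1. Over all genes, 3 passed, against 1152 with DESeq2, 5 with limma voom and 1 to 1016 with 1 library left out (1016 with KO 1 left out, 5 with WT 1, 2 with KO 2, and 1 with any of the rest). With the replicate block, 1 gene and 0 members passed. Same-numbered libraries did not deviate together (correlations of -0.17, -0.02 and 0.05), so the numbers are not taken to pair the samples, and not every library correlated best with its own number. The median log2 fold change of the members, 0.19, was 0.31 with library size alone, 0.10 without the filter, 0.10 with the replicate block and 0.0188 to 0.28 with 1 library left out.

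Signs held in all alternatives for 25 of 34 members. Fzd5 was at 0.0188 with library size alone, and limma voom gave -0.00106 for Fzd8 and -0.00244 for Dkk2. With 1 library left out, log2 fold changes ran from -0.0757 to 0.403 for Sfrp1, -0.0299 to 0.142 for Wnt5a, -0.0558 to 0.121 for Wnt9a, -0.14 to 0.135 for Fzd8, -0.369 to 0.0857 for Wnt10b, -0.17 to 0.657 for Wnt2, -0.619 to 0.24 for Wnt7b and -0.72 to 0.633 for Dkk2. None of these members passed the threshold in any setting. The 8 members highest in TPM were also the 8 highest in FPKM. DESeq2 gave no adjusted p for 5 members with few counts. Depth limits the ligands and inhibitors under about 1 CPM, whose standard errors reached 1.22.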
